A study of Arabidopsis thaliana with 8 samples.

Results

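A set of Arabidopsis loci, 10 of the 8399 genes kept from the arrays, were followed across 8 microarrays. They were AT3G15450, AT4G27450, AT2G05540, AT2G20670, AT5G19120, AT1G49500, AT1G13650, AT1G23390, AT3G07350 and AT5G08350. The list joined genes known to rise under sugar starvation or in darkness with genes of the same pattern in these arrays, namely a high signal at 26°C in every genotype, a low signal in Col-0 at 22°C and a raised signal in mutants at 22°C. The members were thus chosen by the very signals given here, each condition was measured on 1 array, and the temperature and genotype values of the members are descriptions without a test. The annotation used here gave the 10 loci no symbol, so they are called by their locus codes, and no role is assigned to any of them. All 10 had 1 probe set each, and all 10 passed the filter on low signals, which asked for a signal above the 40th percentile of an array on at least 1 array. AT1G13650 passed it on 2 arrays, AT2G05540, AT3G07350 and AT5G08350 on 6, AT2G20670 on 7 and the other loci on 8.

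The arrays were ATH1 GeneChips of shoot apices from 15-day-old plants grown with 16 h of light and 8 h of darkness. Whether the plants for the arrays grew on soil or on solid medium is not given in the sources used here. The 4 genotypes were the wild type Col-0, both single mutants (as2-1 and rh10-1) and their combination, as2-1 rh10-1, called the double mutant below, each grown at 22°C and at 26°C. AS2 acts with AS1 as a repressor in leaf primordia, and RH10 encodes a nucleolar DEAD-box RNA helicase. The as2-1 line had been outcrossed to Col-0, and rh10-1 is a temperature-sensitive point mutation found by mutagenesis of as2-1.

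Plants monitor their carbon supply through a pair of opposed kinases. SnRK1 is active when sugar or light is short and switches on genes for breakdown and recycling, whereas TOR is active when sugar is plentiful and promotes growth and protein synthesis. The shoot apex is a sink tissue that lives on sucrose imported from leaves, and genes induced by low sugar or darkness are commonly read as markers of carbon status.

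Array medians lay between 69.65 and 79.9 on the linear signal scale, and the 20th percentile of an array lay between 8.9 and 11.5. Temperature coincided with a set of 4 arrays, so that growth temperature, harvest and array set cannot be told apart in any comparison of 26°C with 22°C. In tissue RNA, fewer cells of a type and less RNA per cell cannot be told apart either. Of 16 shoot apex and leaf primordium markers, 4 were among the named genes. YAB3, a YABBY gene of leaf primordia, had signals of 270.0 to 508.1, PHV, a HD-ZIP III gene of the adaxial side, had 214.2 to 494.2 and YAB5 had 62.6 to 245.8, whereas CLV3, a stem cell marker, was at 0.9 to 26.8 and did not pass the filter. The log2 difference between temperatures, taken over the genotypes with limma, was -0.63 for YAB3 (adjusted p = 0.0109), -0.30 for YAB5 (adjusted p = 0.188) and -0.11 for PHV (adjusted p = 0.682). The call of YAB3 was lost without an as2-1 or rh10-1 array.

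**Figure D1:**
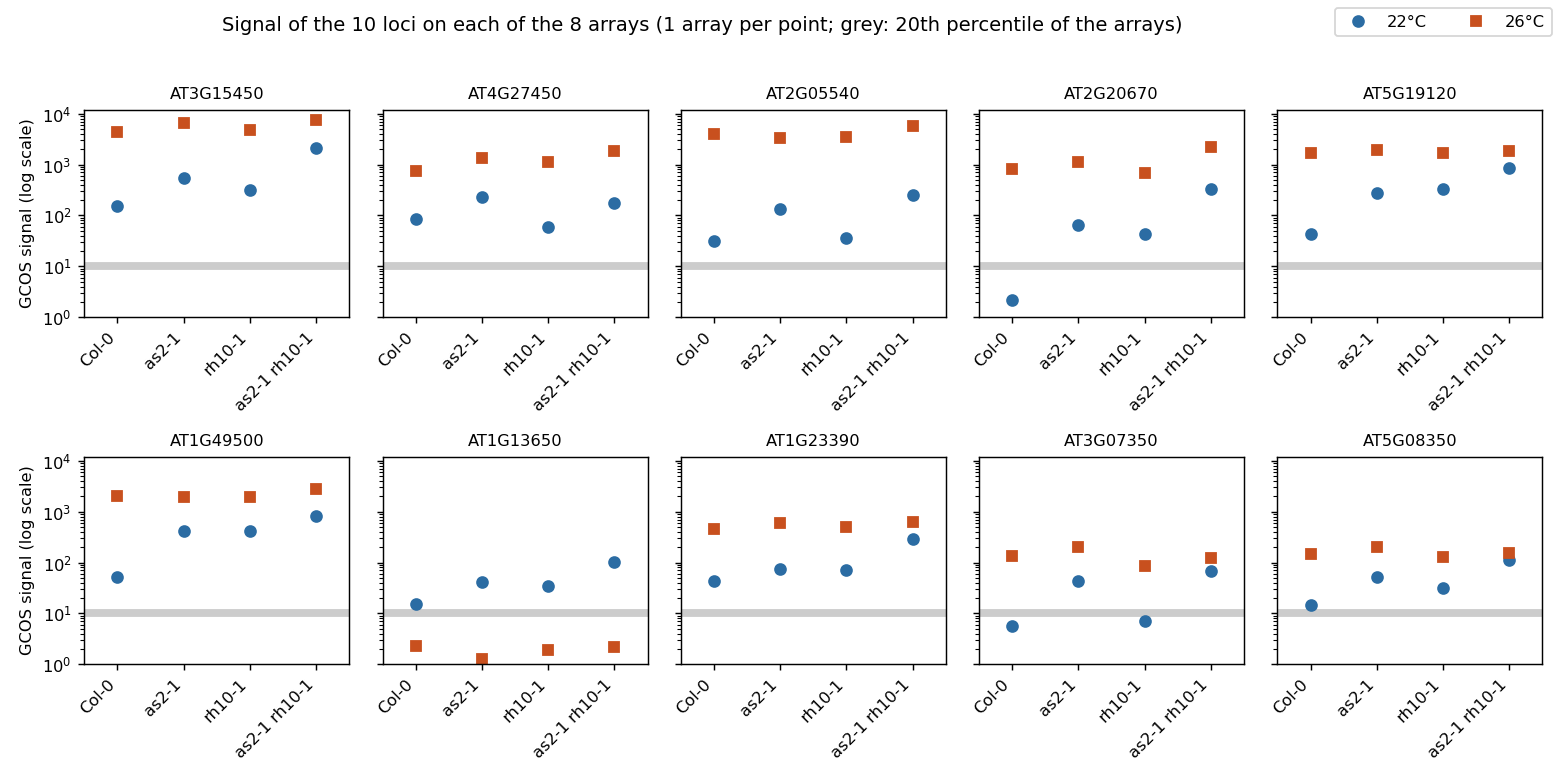
Signal of each locus on each of the 8 arrays, on a log axis, with genotype on the x axis, circles for 22°C and squares for 26°C (1 array per point), and a grey band from 8.9 to 11.5 for the arrays' 20th percentiles. In 9 panels every square lies above every circle, and in the panel of AT1G13650 every square lies below every circle and below the band.

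AT3G15450 followed the course of the group in every respect. At 22°C its signal was 152.9 (Col-0), 555.3 (as2-1), 316.0 (rh10-1) and 2094.6 (double mutant). At 26°C it was 4334.9, 6547.5, 4773.7 and 7643.0 in the same order, at or above the 99.2nd percentile of each array. Col-0 was thus lowest and the double mutant highest at both temperatures, and the lowest signal at 26°C was 2.07-fold above the highest at 22°C. The step from 22°C to 26°C was 28.4-fold in Col-0 and 3.65-fold in the double mutant.

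AT5G19120 and AT1G49500 shared a course in which all mutants were raised at 22°C and no mutant was 2-fold from Col-0 at 26°C. The same held for other loci, AT3G15450 and AT5G08350 among them. AT5G19120 gave 42.7 (Col-0), 271.5 (as2-1), 331.9 (rh10-1) and 853.6 (double mutant) at 22°C, and 1707.3, 1946.0, 1697.2 and 1864.0 at 26°C. Its log2 range over genotypes was 4.32 at 22°C and 0.20 at 26°C, the latter the narrowest of the 10 loci. AT1G49500 gave 51.3, 418.9, 413.6 and 830.9 at 22°C, and 2038.7, 1924.4, 1943.7 and 2835.3 at 26°C. The single mutants were 8.17-fold (as2-1) and 8.06-fold (rh10-1) over Col-0 at 22°C, and their log2 ratios at 26°C were -0.08 and -0.07.

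AT2G20670 had the lowest Col-0 signal at 22°C relative to its array. Its signal at 22°C was 2.2 (Col-0), 64.3 (as2-1), 42.6 (rh10-1) and 324.0 (double mutant), and at 26°C it was 825.6, 1147.3, 686.7 and 2177.4. The Col-0 signal at 22°C lay under the 20th percentile of that array (11.3), so the ratios against it are better read as bounds. With that signal raised to the 20th percentile, Col-0 was 73.1-fold higher at 26°C than at 22°C in place of 375-fold, and the mutants at 22°C were 5.69-fold (as2-1), 3.77-fold (rh10-1) and 28.7-fold (double mutant) over Col-0.

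AT2G05540 and AT4G27450 kept a temperature step of at least 5.84-fold in every genotype, as did AT2G20670 (at least 6.72-fold). AT2G05540 gave 32.1 (Col-0), 131.2 (as2-1), 36.5 (rh10-1) and 255.0 (double mutant) at 22°C, and 3973.3, 3389.3, 3497.9 and 5764.7 at 26°C. Its lowest signal at 26°C was 13.3-fold above its highest at 22°C, the widest such gap among the loci, and the step was 124-fold in Col-0 and 22.6-fold in the double mutant. AT4G27450 gave 86.5, 232.7, 59.6 and 172.3 at 22°C, and 735.3, 1358.1, 1116.3 and 1849.0 at 26°C. Here rh10-1 lay below Col-0 at 22°C (0.689-fold), as2-1 rather than the double mutant was highest, and the double mutant, at a log2 ratio of 0.99, fell just short of 2-fold over Col-0. AT4G27450 was also the locus whose temperature step was larger in the double mutant (10.7-fold) than in Col-0 (8.50-fold).

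AT1G23390, AT3G07350 and AT5G08350 were the loci with the smallest gap between the temperatures, with the double mutant at 22°C close to the signals at 26°C. AT1G23390 gave 43.1 (Col-0), 74.1 (as2-1), 72.8 (rh10-1) and 287.2 (double mutant) at 22°C, and 446.9, 595.2, 501.7 and 636.0 at 26°C. The single mutants, at log2 ratios of 0.78 and 0.76, stayed under 2-fold over Col-0 at 22°C, whereas the double mutant was 6.66-fold higher. AT3G07350 gave 5.7, 44.0, 7.2 and 69.3 at 22°C, and 134.2, 201.8, 86.4 and 120.4 at 26°C. The Col-0 and rh10-1 signals at 22°C were under the 20th percentile of their arrays, and with both raised to it the log2 ratio over Col-0 was 1.96 in as2-1, -0.07 in rh10-1 and 2.62 in the double mutant.

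AT5G08350 gave 14.9 (Col-0), 51.2 (as2-1), 31.8 (rh10-1) and 111.5 (double mutant) at 22°C, and 150.0, 206.2, 128.9 and 156.7 at 26°C. All mutants were raised at 22°C, and the double mutant there was 1.41-fold below its own level at 26°C. The lowest signal at 26°C exceeded the highest at 22°C by 1.16-fold in AT5G08350, 1.25-fold in AT3G07350 and 1.56-fold in AT1G23390.

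AT1G13650 went against the course by which the group is described. Its signal at 22°C was 15.4 (Col-0), 41.7 (as2-1), 34.8 (rh10-1) and 103.4 (double mutant), so that it was raised in every mutant at 22°C, as most of the other loci were (log2 ratios of 1.44, 1.18 and 2.75). At 26°C, however, it was 2.3, 1.3, 1.9 and 2.2, under the 20th percentile of every array. Every signal at 26°C lay below every signal at 22°C, and all mutants were above Col-0 at 22°C and below it at 26°C, as was the case for 6.72% of all kept genes. With the 26°C signals raised to the 20th percentile, the signal at 22°C was at least 1.34-fold higher in Col-0, 4.69-fold (as2-1), 3.35-fold (rh10-1) and 10.1-fold (double mutant), and the Col-0 signal at 22°C was itself only at the 24.2nd percentile of its array. AT1G13650 is therefore counted below among the 10 but left out where the text speaks of the other 9.

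At least 2-fold more signal at 26°C than at 22°C was found for 9 of the 10 loci in Col-0 and in each single mutant and for 7 in the double mutant. Over all kept genes the shares were 11.1%, 13.9%, 15.1% and 16.0%, and since the members were chosen on this pattern nothing is read from the difference. The loci under 2-fold in the double mutant, besides AT1G13650, were AT3G07350 (log2 ratio 0.80) and AT5G08350 (0.49). Higher by 2-fold in every genotype were 7 of the 10, against 4.12% of all genes, and AT1G13650 was listed as lower by 2-fold in every genotype, against 2.66%. That last count rests on signals under the 20th percentile and was 0 of 10 with those raised to it, when the Col-0 difference of AT1G13650 was 1.34-fold. All 26°C arrays lay above all 22°C arrays for 9 loci (21.9% of all genes) and below them for 1 (16.7%).

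The median temperature step was largest in Col-0 and smallest in the double mutant. The median log2 ratio of the 10 loci was 4.69 (Col-0), 2.69 (as2-1), 3.19 (rh10-1) and 1.46 (double mutant), where the median over all kept genes was between 0.05 and 0.09. The step was smaller in the double mutant than in Col-0 for 8 of the 9 loci that rose, AT4G27450 being the exception. Members were chosen in part for a low Col-0 signal and raised mutant signals at the lower temperature. That choice favours a smaller step in the mutants, so nothing is read from this count or from the order of the medians. The share of all kept genes with a smaller step in the double mutant was not counted. Each genotype contributes 1 pair of arrays, and the difference between genotypes was not tested.

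**Figure D2:**
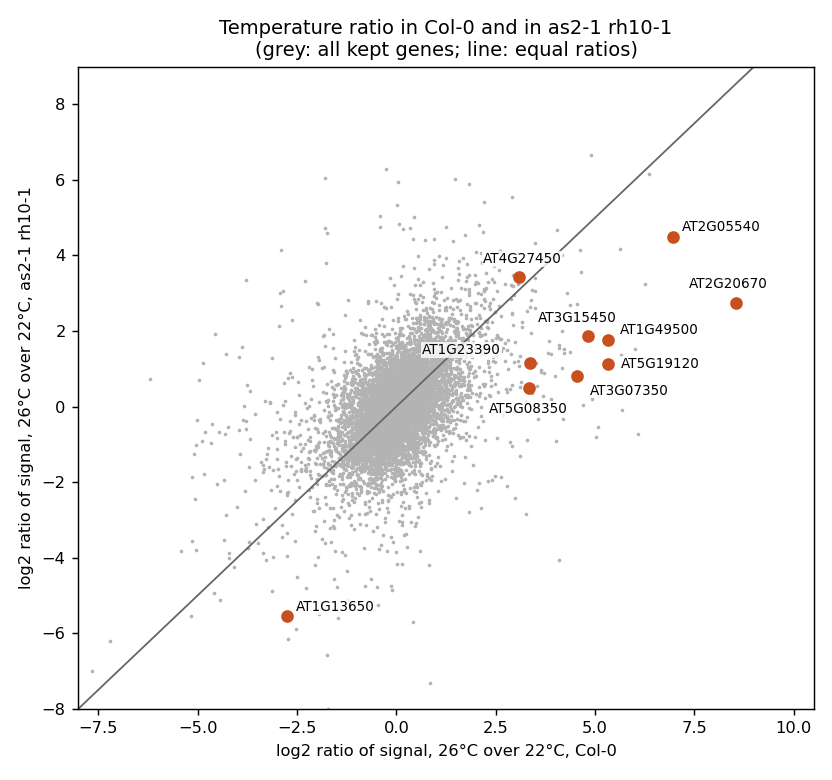
Log2 ratio of signal at 26°C over 22°C in Col-0 (x axis) and in the double mutant (y axis) for the 8399 kept genes (grey) and the 10 loci (orange); each axis is 1 array over another and the line marks equal ratios. Of the 9 loci to the right of 0, 8 lie under the line and AT4G27450 lies just above it.

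At 22°C the mutants were compared with Col-0 on the same set of arrays. At least 2-fold higher were 9 of the 10 loci in as2-1 (2.66% of all genes), 6 in rh10-1 (4.82%) and 9 in the double mutant (4.76%). The median log2 ratio was 1.95 in as2-1, 1.07 in rh10-1 and 3.30 in the double mutant, and no locus was 2-fold lower in any mutant. All mutants were 2-fold over Col-0 for 6 loci, against 1.45% of all genes (0.929% with low signals raised to the 20th percentile, when 6 loci were still counted). Just inside that limit was AT3G15450 in rh10-1 at a log2 ratio of 1.05, and just outside it was AT4G27450 in the double mutant at 0.99.

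Genotypes kept the same order at 22°C for most of the loci. The double mutant was highest for 9 of 10, and Col-0 was lowest for 9 of 10, with AT4G27450 the exception in both cases. A low Col-0 signal and raised mutant signals at 22°C are what the members were chosen on. The shares of all kept genes with these orders were not counted, so the order counts given here are descriptions only. Between the single mutants, as2-1 was above rh10-1 for 9 loci, by 0.02 (AT1G49500) to 2.61 (AT3G07350) on the log2 scale, and below it for AT5G19120 (-0.29). The single mutants were near equal in AT1G49500, AT1G23390, AT1G13650 and AT5G19120, within 0.29 log2 units at 22°C. In AT3G07350, AT4G27450 and AT2G05540, as2-1 was above rh10-1 by 1.85 or more, where both the rh10-1 and the Col-0 signal of AT3G07350 were under the 20th percentile.

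**Figure D3:**
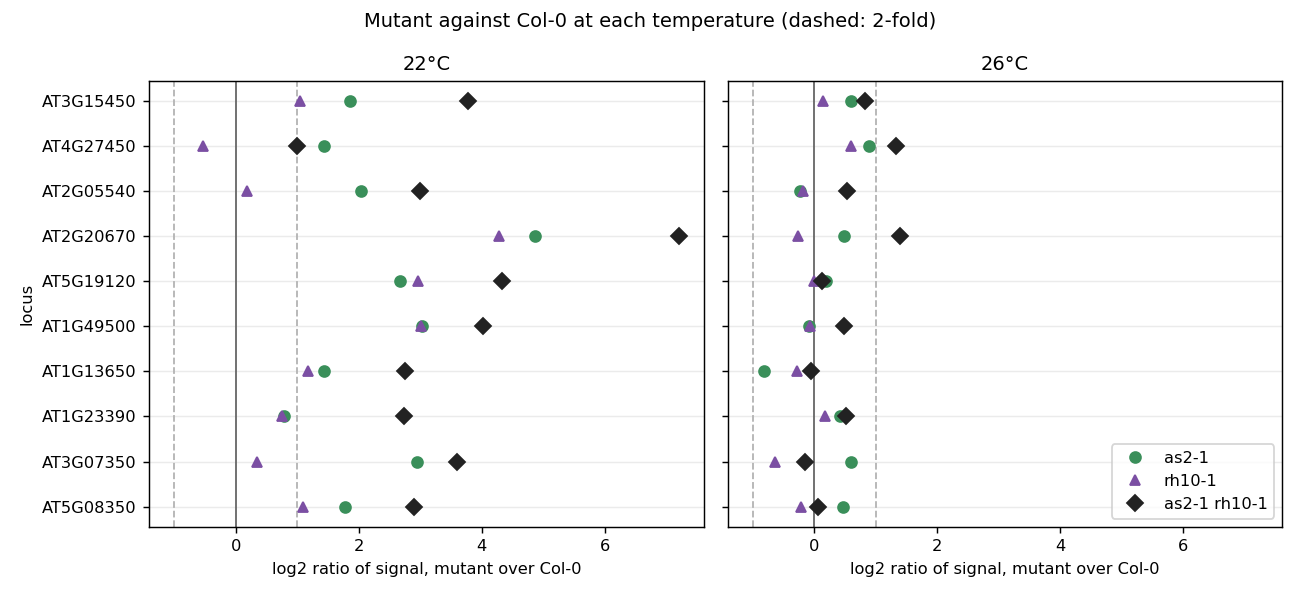
Log2 ratio of signal of each mutant over Col-0 at 22°C (left) and at 26°C (right) for each locus, 1 array over another per point, with dashed lines at 2-fold. At 22°C the double mutant reaches 7.20 in AT2G20670 (4.84 with the Col-0 signal at the 20th percentile), and at 26°C no point but those of AT2G20670 and AT4G27450 in the double mutant passes 2-fold.

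At 26°C the same genotypes were nearly level. No locus was 2-fold higher than Col-0 in as2-1 (2.56% of all genes) or in rh10-1 (4.26%), 2 were in the double mutant (7.22%), and none was 2-fold lower in any mutant. The 2 were AT2G20670 (2.64-fold) and AT4G27450 (2.51-fold). The median log2 ratio over Col-0 was 0.44, -0.13 and 0.49 in as2-1, rh10-1 and the double mutant. For the 9 loci without AT1G13650, the highest genotype was 3.90- to 147-fold over the lowest at 22°C (median 12.2-fold) and 1.15- to 3.17-fold at 26°C (median 1.70-fold). With signals raised to the 20th percentile the median at 22°C was 7.94-fold and the highest ratio 28.7-fold, in AT2G20670. Members were chosen in part for low Col-0 and raised mutant signals at 22°C, which favours a wider spread there. The spread over all kept genes was not computed, so the contrast between temperatures is a description only.

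The position of the mutants at 22°C between Col-0 at 22°C and Col-0 at 26°C was expressed as a share of that log2 distance, for the same 9 loci. As2-1 covered 23.2% to 64.7% (median 50.1%), rh10-1 covered -17.4% to 56.7% (median 22.4%) and the double mutant covered 32.2% to 87.2% (median 79.1%). In the double mutant AT5G08350 came nearest to its Col-0 level at 26°C (87.2%), and AT4G27450 (32.2%) and AT2G05540 (43.0%) stayed farthest from it. The negative share of rh10-1 is that of AT4G27450.

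The log2 ratio of the double mutant at 22°C was set against the sum of those of the single mutants, with which it shares the Col-0 array. It exceeded the sum for 6 of the 9 loci and fell short of it for 3, over a range of -2.02 to 1.20 with a median of 0.10. Over all kept genes the median was 0.05 and the 5th to 95th percentiles ran from -0.95 to 1.15. The largest excess was in AT1G23390 (1.20), where each single mutant was under 2-fold. The shortfalls were in AT1G49500 (-2.02), AT2G20670 (-1.94) and AT5G19120 (-1.31), the loci in which both single mutants were raised most. The single ratios are subtracted and share the Col-0 array, so large single ratios favour a shortfall, and nothing is read from this. The value of AT2G20670 depends on its Col-0 signal of 2.2, and with that raised to the 20th percentile the difference was 0.42, so that 7 loci exceeded the sum and 2 fell short. The share of all kept genes above the sum was not counted. Their median was positive too, so nothing is read from the counts of loci above or below it.

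Both courses at once, 2-fold in every genotype with temperature and 2-fold in every mutant at 22°C, were found for 4 of the 10 loci (AT3G15450, AT2G20670, AT5G19120 and AT1G49500). The same limits were met by 0.0952% of all kept genes, 8 in all, and the other 4 were AT1G03710, AT1G49310, AT3G02390 and AT5G46730. Members were chosen on these courses, so nothing is read from the difference between the shares.

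Over the 8 arrays the 9 loci that rose ran in parallel. The loci were chosen in part for a shared pattern in these arrays, which favours a high r, so nothing is read from it. As a description over 8 arrays that share their temperature sets, Pearson's r of the log2 signals was 0.816 to 0.993 over the 36 pairs (median 0.946). Of the 9, AT4G27450 was the least like the rest (r of 0.864 to the mean of the other loci, AT1G13650 included) and AT5G08350 the most (0.989). AT1G13650 ran opposite to the 9, with r between -0.839 and -0.574.

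Among 1678 other genes whose log2 signals spanned at least 2 units, the 8 closest in course to the mean of the loci had r of 0.956 to 0.975. They were AT3G29140, AT3G15630, AT2G30600, AT5G18610, AT4G10910, CML30 (a calmodulin-like protein), AT1G67910 and AT5G11070. As an example, AT3G15630 gave 136.6, 277.2, 196.8 and 509.4 at 22°C and 950.7, 1244.1, 858.1 and 1727.3 at 26°C. Its order of genotypes was that of AT3G15450 at 22°C but not at 26°C, where rh10-1 lay below Col-0. AT4G10910 had the largest step, at a log2 ratio of 4.21 in Col-0, from a signal of 9.8 that lay under the 20th percentile. All 8 were higher in each mutant than in Col-0 at 22°C, by 0.88 to 2.15 in as2-1, 0.18 to 1.73 in rh10-1 and 1.58 to 2.41 in the double mutant on the log2 scale. In AT3G29140, AT5G18610, AT4G10910 and CML30 the Col-0 signal at 22°C was under the 20th percentile. The 8 genes were picked for their likeness, and these values are a description of it.

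A further list of 36 low-sugar and dark-induced genes held 8 that were named and kept, and these were compared between temperatures with limma over all arrays, with genotype in the model and Benjamini-Hochberg adjustment over all genes. Called higher at 26°C were 7 of the 8 and lower 0, against 21.4% and 17.1% of all genes tested. The list was chosen with earlier results of these data known, so these counts are a description. The median log2 difference of the list was 1.18, where that of all genes was 0.06. AKINBETA1, a beta subunit of SnRK1, was 8.82-fold higher at 26°C (log2 difference 3.14 ± 0.169 SE, adjusted p = 1.25e-05), with signals of 141.7 to 160.7 at 22°C and 1031.7 to 1935.6 at 26°C. ATL8, of a family of RING-type ubiquitin ligases, rose by 2.48 ± 0.224 (adjusted p = 0.000145).

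Several genes of that list belong to amino acid breakdown. MCCA, a subunit of the leucine-degrading methylcrotonyl-CoA carboxylase, rose by 2.28 ± 0.318 SE on the log2 scale (adjusted p = 0.000929), and its partner MCCB by 0.71 ± 0.208 (adjusted p = 0.0246). IVD, an enzyme of the same pathway, rose by 1.36 and ETFQO, which passes electrons from this breakdown to respiration, by 1.00. D2HGDH, a dehydrogenase that feeds the same electron chain, had a log2 difference of 0.31 that did not pass (adjusted p = 0.328), and AT1G18460 rose by 0.89. Without an as2-1, rh10-1 or double mutant array, MCCB and ETFQO were no longer called, and 5 of the 8 were. Without a Col-0 array D2HGDH was called as well.

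At 22°C none of these genes was raised by 2-fold in a mutant. Of all kept genes only 2.66% (as2-1), 4.82% (rh10-1) and 4.76% (double mutant) were, so nothing is read from that count. The median log2 ratio of the list over Col-0 at 22°C was -0.12 in as2-1, -0.40 in rh10-1 and -0.29 in the double mutant. AKINBETA1 was level over the genotypes at 22°C, at 159.1 (Col-0), 160.7 (as2-1), 141.7 (rh10-1) and 157.0 (double mutant). At 26°C the median of the list was 0.56, 0.24 and 0.77, with all 8 above Col-0 in the double mutant and MCCA at 1.98 there. MCCA, MCCB, IVD, ETFQO and D2HGDH, 5 of the 8, were below Col-0 in all mutants at 22°C and above it in all at 26°C, against 9.42% of all kept genes. Some of these ratios were close to none, as for IVD in as2-1 at 22°C (-0.007) and MCCB at 26°C in as2-1 (0.065) and rh10-1 (0.067). The mutants also share the Col-0 array of their temperature. The 10 loci were chosen for a raised signal at 22°C and the list was not, so the contrast between them was not tested.

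**Figure D4:**
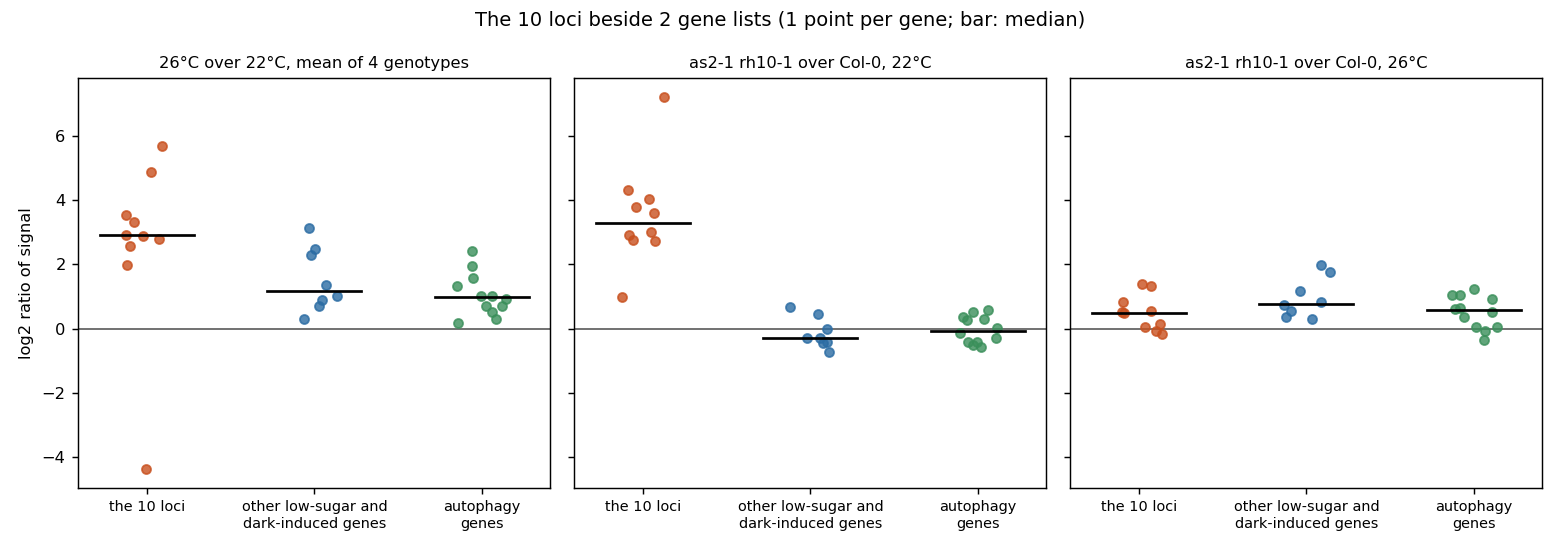
Log2 ratios of the 10 loci, the 8 other low-sugar and dark-induced genes and the 12 autophagy genes (1 point per gene, bars at medians) for 26°C over 22°C averaged over genotypes (left) and for the double mutant over Col-0 at 22°C (middle) and at 26°C (right). The medians are 2.90, 1.18 and 0.97 on the left, 3.30, -0.29 and -0.07 in the middle and 0.49, 0.77 and 0.57 on the right.

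Autophagy genes encode the machinery of vesicles that carry cell contents to the vacuole. Of 18 listed, 12 were kept, 8 were called higher at 26°C and 0 lower (21.4% and 17.1% of all genes), with a median log2 difference of 0.97. This list too was chosen with earlier results of these data known, and its counts are a description. ATG8B (2.41 ± 0.161 SE, adjusted p = 4.85e-05) and ATG8E (1.94 ± 0.214, adjusted p = 0.00034), members of the ubiquitin-like ATG8 family that coats these vesicles, had the largest differences. The smallest were those of AT3G61960 (0.30) and AT3G53930 (0.18), which did not pass. ATG8G (0.69) was not called without an rh10-1 array. At 22°C the median over Col-0 was -0.24, -0.21 and -0.07 in as2-1, rh10-1 and the double mutant, again with no gene at 2-fold. Of all kept genes 2.66%, 4.82% and 4.76% were, so nothing is read from that count either.

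Of 12 sugar-induced genes 2 had a usable named probe set, both encoding large subunits of the starch-building ADP-glucose pyrophosphorylase. APL3 was lower at 26°C by limma (log2 difference -2.78 ± 0.529 SE, adjusted p = 0.00375). Its signal was 219.5 (Col-0), 171.4 (as2-1), 129.2 (rh10-1) and 78.1 (double mutant) at 22°C, and 6.4, 28.4, 29.3 and 32.5 at 26°C. Col-0 was thus highest at 22°C and lowest at 26°C, where its signal was under the 20th percentile. APL4 had a log2 difference of -0.46 (adjusted p = 0.328). Of a separate list of 11 SnRK1 and TOR kinase components 3 had a usable named probe set. Of these 0 were called, with RAPTOR1, a partner of TOR, at 0.25. The SnRK1 subunit AKINBETA1 was not on that list but on the low-sugar list, and was called higher (log2 difference 3.14).

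Other markers moved with temperature beside the loci. Of 16 clock genes only GI, which peaks late in the day, had a usable named probe set. Its signals were 81.7, 63.3, 103.1 and 109.3 at 22°C and 482.8, 420.4, 183.8 and 103.6 at 26°C (limma log2 difference 1.51, adjusted p = 0.0213). That call was lost without either Col-0 array, without either as2-1 array and without the variance trend. Of 10 mature leaf photosynthesis markers 3 had a usable named probe set. Among them RCA, the activase of Rubisco, was lower by limma (-0.96, adjusted p = 0.00151), LHCB4.2 was higher (0.84, adjusted p = 0.0235) and LHCB4.1 was not called (0.38). LHCB4.2 was not called without an as2-1 or rh10-1 array, and LHCB4.1 was called without a double mutant array. Of 12 senescence genes 2 had a usable named probe set and 0 were called, SAG101 at 0.46 and WRKY53 at 0.30. The time of day of harvest is not given in the sources used here, and the part of clock phase, leaf tissue or senescence in the temperature steps of the loci was not tested.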

How the data were processed

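Shoot apices of 4 genotypes at 2 temperatures were each hybridised to 1 ATH1 array. The authors computed expression signals with GCOS and deposited them as linear intensity values for 22746 probe sets, already scaled between arrays (trimmed means 198.1 to 198.4). The scaling target is not given in the sources used here. With 8 arrays, their number limits the precision.

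The 9 signals listed at 0 were set to 0.1 before the log2 step. Probe sets were named through the platform annotation and the locus tags of RefSeq. Of them 13513 carried 1 gene, 503 several and 8730 none. Those ending in _s_at or _x_at were left out, and for each of 13074 genes the probe set of highest mean was used. Genes above the 40th percentile of an array on at least 1 array were kept (8399). Single arrays were compared by log2 ratio with a 2-fold limit and no test.

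A model of genotype plus temperature was fitted over the 8 arrays with limma 3.58.1 in R 4.3.3 (eBayes with an intensity trend, 3 residual degrees of freedom, Benjamini-Hochberg adjustment, threshold 0.05). Its spread is that of the temperature difference between genotypes, not of replicates. The fit was also run on simulated data with independent noise and the same temperature effect in every genotype. That check holds no difference in temperature effect between genotypes, so it does not bear on the calls given here. Tables and figures were made with Python 3.11.15, numpy 2.4.6, pandas 2.3.3 and matplotlib 3.10.9.

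Named were all members, the 2 genes of each list with the largest and the 2 with the smallest temperature difference, and the 8 genes closest in course to the members. The other genes of the low-sugar list and the list genes of opposite sign at the 2 temperatures were named after their values were seen. The members and the lists were chosen with earlier results of these data known. Of 7 floral transition markers 0 had a usable named probe set. A list gene without one may still be on the array, since 8730 probe sets carried no gene name here. Alternatives changed the scaling (quantile or median), set a floor at the 20th percentile, moved the filter to the median or dropped it, averaged all probe sets of a gene, ran eBayes without a trend or left out each array in turn.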

Additional observations from a re-analysis of the deposited data

Results flagged for a closer look

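For 10 genes all 3 mutants lay on one side of Col-0 at 22°C and on the other side at 26°C. These are 1 of the 10 loci, 9 of the 34 kept genes of the lists and 0 of the 8 genes of like course. Over all 8399 kept genes, 6.72% went from above Col-0 at 22°C to below it at 26°C and 9.42% the other way. The difference between temperatures was not tested, and the values below compare the mean log2 ratio of the mutants over Col-0 at 26°C less that at 22°C, with each temperature's own Col-0 array shared by its 3 ratios.

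AT1G13650 differed by -2.17, from 1.79 at 22°C to -0.39 at 26°C, where all its signals were under the 20th percentile. The other genes went the opposite way, with mutants below Col-0 at 22°C and above it at 26°C. APL3 differed by 3.1 (AT4G39210, from -0.87 to 2.23). Of the leucine and amino acid breakdown genes, MCCA differed by 1.5 (AT1G03090), ETFQO by 1.48 (AT2G43400), D2HGDH by 1.14 (AT4G36400), IVD by 0.78 (AT3G45300) and MCCB by 0.76 (AT4G34030). Of the ATG8 family, AT3G15580 differed by 1.03, ATG8F (AT4G16520) by 1.01 and ATG8C (AT1G62040) by 0.87.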

How the results depend on the processing

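No count or single ratio of 2-fold or more changed direction. Where low signals were raised to the 20th percentile, the log2 ratio of AT3G07350 in rh10-1 at 22°C went from 0.34 to -0.07, and the double mutant of AT2G20670 less the sum of the single mutants from -1.94 to 0.42. The counts of the loci at 2-fold and the 40 medians recomputed under other scalings, the floor and other probe sets moved by less than 1.5 times, except that the count of loci 2-fold lower at 26°C in every genotype went from 1 to 0 (AT1G13650) with that floor. The recounts of patterns over several arrays were added after seeing the data. Of 400 single-locus ratios 389 also moved by less, and the other 11 were ratios of AT2G20670, AT3G07350 and AT1G13650 with the floor at the 20th percentile. By limma 1801 genes were higher and 1438 lower at 26°C. Leaving out 1 array, which leaves its genotype no temperature pair, gave 1180 to 1801 higher and 874 to 1459 lower, with the fewest when an as2-1 array was left out (1180 and 907 without that at 26°C, 1204 and 874 without that at 22°C), and 941 lower without rh10-1 at 22°C. The higher share of calls was 55.6%, 49.4% after quantile normalization and 46.9% after centring. The other low-sugar genes kept 5 to 8 calls and the autophagy genes 7 to 8 under leaving out 1 array. Signals under the 20th percentile give bounds only, and no single ratio has a replicate.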
